A study of Mus musculus with 23 samples.

Results

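Transcript abundance and its spread between animals were described in the small intestine of 12 male adult C57BL/6J mice on a high-fat diet without quercetin (HF). These are the 12 of 23 samples whose titles name the HF group. The other 11 mice ate the same high-fat diet with 0.33% quercetin by weight (HF-Q), and they serve below as mice in which a pattern found in HF could be looked at again. Their values are printed beside those of HF for this purpose. No difference between the diets was tested. All 23 mice had first been on a normal-fat diet for 3 weeks, stayed on their high-fat diet for 12 weeks, and had no food in the last 2 to 4 hours. The labels name no genetic change, and 1 quercetin-fed mouse was left out by the authors. No source used here says at what time of day, or along which length of the intestine, the scrapings were made, and no litter or cage is given.

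The surface of the small intestine is lined mainly by enterocytes, which absorb nutrients and pack dietary fat into chylomicrons. Between the villi lie crypts, where stem cells divide and Paneth cells secrete antimicrobial peptides, the alpha-defensins among them. Below the epithelium lie immune cells, connective tissue and smooth muscle, and the pancreas drains into the first stretch of the gut. A scraping can hold all of these in different proportions.

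Each mouse gave 1 array of long oligonucleotide probes. Its RNA was labelled with Cy5 and hybridised together with a Cy3-labelled equimolar pool of all samples, always with the dyes this way round. Abundance is given here as the mean log2 Cy5 spot signal over the 12 arrays, as read by the scanner. Spread is the standard deviation (SD) across the 12 mice of the log2 ratio of Cy5 to Cy3 after loess normalization within each array. Probes entered the rankings only if the scanner software called their Cy5 signal above background on each of the 12 HF arrays. This held for 24978 of 55681 probes (44.9%), and 18825 genes had a usable ratio in at least 10 of the 12 mice, 12944 of them with an established gene symbol. Median Cy5 spot signals of the HF arrays ran from 93.9 to 123 intensity units and 50.6% to 57.8% of their spots were well above background.

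The label of the tissue was checked first. The enterocyte markers Fabp2 (intestinal fatty acid binding protein), Apoa1 (the main apolipoprotein of HDL) and Sis (sucrase-isomaltase, which splits sugars at the brush border) had mean log2 signals of 18.98, 16.89 and 17.19. All 18 genes of an enterocyte list were kept, and 17 lay in the top 10% of signal, which by construction holds 10% of all genes. A protocol field names liver as the source of the RNA, so 15 hepatocyte genes were examined too. Probes for Ahsg, Fgg and Mup3 passed the background call in 0 of the 12 mice. Fgb and Hpx passed in 1 mouse and Alb, the major plasma protein of the liver, in 6. The other 9 were kept, 0 of them in the top 10% of signal.

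Alpha-defensins of Paneth cells were the most numerous family among the brightest transcripts. Of the 15 named genes with the highest mean signal, 6 were alpha-defensins (Defa23, Defa3, Defa38, Defa32, Defa40 and Defa42), and Defa23 led the ranking at 19.10. Fabp2 (18.98) and its liver-type relative Fabp1 (18.62) carry fatty acids inside the enterocyte, and Apoc2 (18.75) is the cofactor of lipoprotein lipase on chylomicrons. Zg16 (18.89) is a lectin of goblet cell mucus, Actb (18.94) is beta-actin, and Crip1 (18.89) is a small LIM protein abundant in the gut. Cox6a1 (18.94) is a subunit of cytochrome c oxidase, Mdh2 (18.63) the mitochondrial malate dehydrogenase and Glrx2 (18.67) the mitochondrial glutaredoxin. Fabp1 was the last gene inside the 15 and Prap1, at 18.61, the first outside. Signals of different probes also depend on the probe, so this is an order of brightness and not of molecule numbers.

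**Figure D1:**
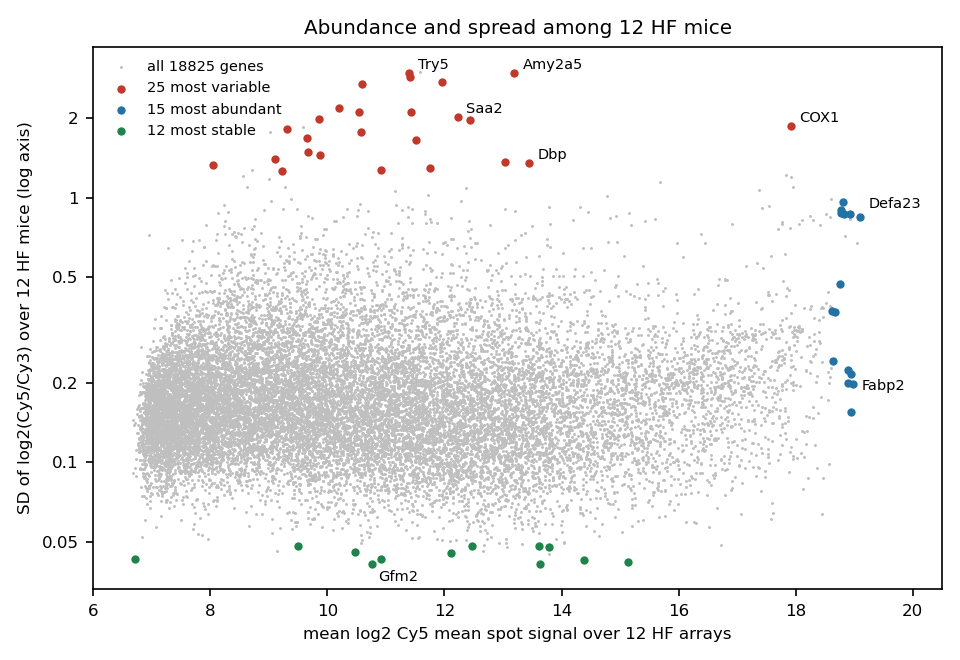
Each grey point is a gene kept on all 12 HF arrays, with its mean log2 Cy5 signal on the x axis and the SD of its log2(Cy5/Cy3) over the 12 mice on a logarithmic y axis. The 25 most variable genes (red) reach SDs of 1.26 to 2.98 mostly at middling signal, the 15 most abundant (blue) split into defensins near 0.85 to 0.97 and genes below 0.5, and the 12 most stable (green) lie below 0.05.

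The values of the brightest genes show where the Cy5 channel had little room left. Linear Cy5 signals of Defa23 were 410300 in the lowest, 591000 in the median and 635900 in the highest HF mouse, and those of Fabp2 were 444300, 509100 and 586300. The saturation value in the file headers of these arrays was 636464 to 673946, close to the highest Defa23 signal, and the Defa23 spot of 1 HF array (mouse 11) was marked as saturated. No other kept gene had such a spot in HF. The log2 ratio of Defa23 was nevertheless -0.77 in the lowest mouse, 1.09 in the median and 1.71 in the highest, a 5.56-fold range, with mice 1, 3 and 4 below 0 and all others above. That range came from both dyes. The SD of the quantile-normalized Cy5 signal was 0.15 for Defa23 and that of the Cy3 signal 0.45, although the Cy3 pool was the same on every array.

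The same held for every one of the 15 brightest genes, in each of which the SD of Cy3 was above that of Cy5. Their Cy5 and Cy3 signals moved in opposite directions across arrays, with correlations of -0.94 to -0.67 (n = 11 or 12 arrays, which share the pool). Over all 18825 genes the SD of Cy3 exceeded that of Cy5 in 4.36%, but in 76.2% of the 101 genes with a mean log2 signal of 18 or more. For the 6 defensins the ratio SD was 0.85 to 0.97, the Cy5 SD 0.15 to 0.26 and the Cy3 SD 0.39 to 0.48. How much of the ratio's spread at this brightness came from the mice and how much from the hybridisation was not tested. Alpha-defensin transcripts are also near copies of each other, so a single probe may read several of them.

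**Figure D2:**
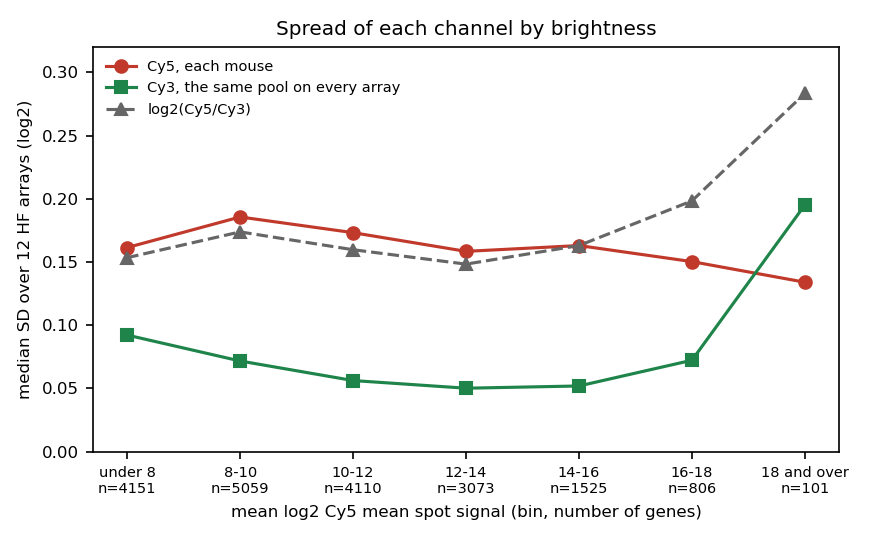
Median SD over the 12 HF arrays of the Cy5 signal of each mouse (red), of the Cy3 signal of the shared pool (green) and of log2(Cy5/Cy3) (grey), in bins of mean log2 Cy5 signal with the number of genes under each bin. The pool's median SD is 0.05 to 0.09 up to a signal of 18 and 0.20 above it, where the Cy5 median is 0.13.

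For most genes the 12 mice lay close together. The median SD over all 18825 genes was 0.16, with quartiles of 0.12 and 0.22, and in the 11 HF-Q mice the median was also 0.16. An SD above 0.5 was found for 442 genes (2.35%), of which 240 had an established symbol, and an SD above 1 for 42. The number of genes with SD above 0.5 was 1106 when the authors' log10 ratio was used instead. For comparison, the median SD of the Cy3 pool channel was 0.07 and that of the Cy5 channel 0.17, while the 10 spots of a probe repeated on 1 array differed with a median SD of 0.06. A large SD rested on a single animal in few genes: leaving out 1 mouse cut the SD to under 50% of its value in 9 of the 442, and in 5 of these it was mouse 8. The arrays stood on 3 slides with 4 HF arrays each. The moderated F-test of limma for a difference between slides called 0 of 18825 genes (0%) at adjusted p under 0.05, and 499 had an unadjusted p under 0.05.

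Products of the exocrine pancreas were the most variable named transcripts, led by Amy2a5 with an SD of 2.98. Of the 25 named genes with the largest SD, 17 belonged to the pancreatic group of genes that varied together, described further on. Amy2a5 (pancreatic alpha-amylase) had a log2 ratio of -5.53 in the lowest mouse, -1.25 in the median and 2.38 in the highest, a 241-fold range. Mice 1, 2, 4 and 11 lay above 0, and mice 6, 8, 9 and 12 lay at or below -4.83. Try5 (a trypsinogen; SD 2.97) ran from -5.45 to 2.11, with the same 4 mice above 0 and the same 4 lowest. Try4, Amy1, Cela3a, Cela3b, Prss2, Cpa1, Cela2a and Ctrb1 (trypsinogens, amylase, elastases, carboxypeptidase and chymotrypsinogen) followed with SDs of 1.97 to 2.88. Cel (bile salt-dependent lipase), Cela1, Sycn (a zymogen granule protein), Pnliprp1 and Ctrl had SDs of 1.46 to 1.77. In bulk tissue, fewer cells of a type and less RNA per cell cannot be told apart, here and in all groups of genes that follow.

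The pancreatic genes lie in several parts of the genome. On mouse build mm9 the probe used for Amy2a5 lies on chromosome 3 from 113084781 to 113084840, that of Try5 on chromosome 6 from 41261247 to 41261306 and that of Cel on chromosome 2 from 28411609 to 28411668. Whether probes lie in exons or UTRs was not looked up. A further probe of the same gene gave nearly the same order of mice where one was kept, but a smaller spread. Its SD was 1.894 for Amy2a5 (2.975 for the probe used) and 1.985 for Cela3a (2.69 for the probe used). Its ratio correlated with that of the probe used at r = 0.98 for Amy2a5 (Spearman's rho 0.94) and r = 0.99 for Cela3a (rho 0.95), over 12 mice. In each, r was 0.99 after the 2 mice farthest from the median were left out. These are descriptions with no test, since the ratio of the probe used chose the genes. Of 22 measured genes on a pancreatic acinar list, 19 had an SD in the top 10% of SD over all genes, and the list's mean log2 ratio ran from -2.13 in mouse 8 to 1.32 in mouse 11. The least variable was Zg16 at 0.22, which goblet cells also make. The amount of pancreatic tissue in each scraping was not tested.

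Among the other genes, those of inducible epithelial defence were prominent, and 8 of 11 measured genes of that list were in the top 10% of SD. Saa2, an acute-phase serum amyloid A that gut epithelium makes on contact with bacteria, had an SD of 2.03. Its log2 ratio was -5.15 in the lowest mouse, -0.73 in the median and 1.47 in the highest, with mice 1, 3 and 4 lowest and mice 5, 10 and 11 above 0. The neighbouring Saa1 (SD 1.37) ran from -2.96 to 1.29. Ubd (SD 1.29), the ubiquitin-like modifier FAT10 induced by interferon and TNF, lay between -2.31 and 1.81 with mouse 8 highest. Pla2g5 (SD 1.26), a secreted phospholipase, lay between -2.62 and 0.87, though a weaker probe of this gene, above background on 8 arrays, had an SD of 0.15. Reg3g, a bactericidal lectin, was the first gene outside the 25 at 1.22. Reg2 (SD 1.40), a relative of Reg3g made in the pancreas, belonged to the pancreatic group, with r = 0.79 to Amy2a5 in HF. It was highest in mouse 11 at 2.01 and lowest in mouse 8 at -2.51.

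The remaining variable genes lay outside the pancreatic group. Dbp (SD 1.35), a transcription factor under control of the circadian clock, is described with its group below. Aqp8 (SD 1.27), a water channel, lay between -2.07 in mouse 2 and 1.92 in mouse 4, and a weaker probe above background on 7 arrays had an SD of 0.68. BC037704 (SD 1.33) was at 4.65 in mouse 8 and between -0.115 and 0.24 in the other 11, so that its SD was 0.11 without mouse 8. COX1 (SD 1.87), the mitochondrially encoded first subunit of cytochrome c oxidase, fell into separate levels. It was at -2.93, -3.21 and -2.85 in mice 6, 8 and 12 and between -0.63 and 1.5 in 8 others, with no usable value for mouse 10. The other 10 mitochondrially encoded transcripts that were kept had SDs of 0.25 to 0.42. On the quantile-normalized log2 scale the Cy5 signal of COX1 was 16.03 to 16.33 in those 3 mice and 18.01 to 18.88 in the 8 others. Its Cy3 signal, from the shared pool, also differed: it was 17.76 in each of the 3 mice and 16.03 to 16.93 in the 8 others.

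**Figure D3:**
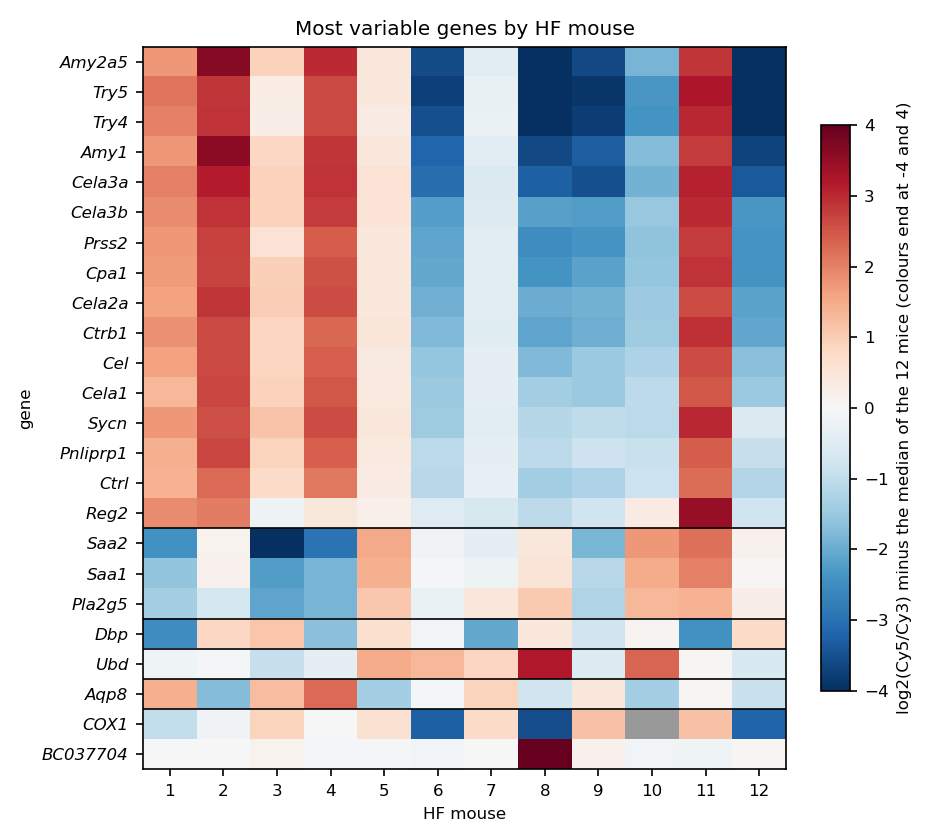
Log2(Cy5/Cy3) of 24 of the 25 most variable genes (rows) in the 12 HF mice (columns), less the gene's median over the mice, with red above and blue below it and grey for a missing value. The pancreatic genes share 1 pattern (high in mice 1, 2, 4 and 11), Saa1, Saa2 and Pla2g5 another (low in mice 1, 3 and 4), and BC037704 stands out in mouse 8 alone.

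The spread of single genes was much alike in the HF-Q mice, which had no part in the choice of genes. Of the 25 most variable genes, 24 were in the top 10% of SD there as well (a class that holds 10% of all genes), and the exception was BC037704 with an SD of 0.09. Of the 100 named genes with the largest SD in HF, 94 were in the top 10% in HF-Q. Over these 25 genes the unadjusted p-values of the slide F-test in limma ran from 0.13 to 0.94. In all 25 the Cy5 SD (median 1.86) was above the Cy3 SD (median 0.07).

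Genes that varied together were sought among the 200 most variable named genes by average linkage on 1 minus Pearson's r across the 12 mice. Dividing the tree at 0.4 gave 8 groups of at least 5 genes, which held 178 of the 200 genes and 23 of the 25 above, all but COX1 and BC037704. Correlations inside the groups describe the HF mice that formed them. Over all pairs of 12763 named genes with full data the median r was near 0 in both sets of mice (-0.000189 in HF, 0.00242 in HF-Q). Of each group, the gene with the largest SD and its closest partner of another name were then tested in the HF-Q mice by permutation. By Pearson's r 5 of 7 such pairs passed. Of these 5, the pair of Ubd and Zbp1 did not pass by Spearman's rho (adjusted permutation p = 0.0519).

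**Figure D4:**
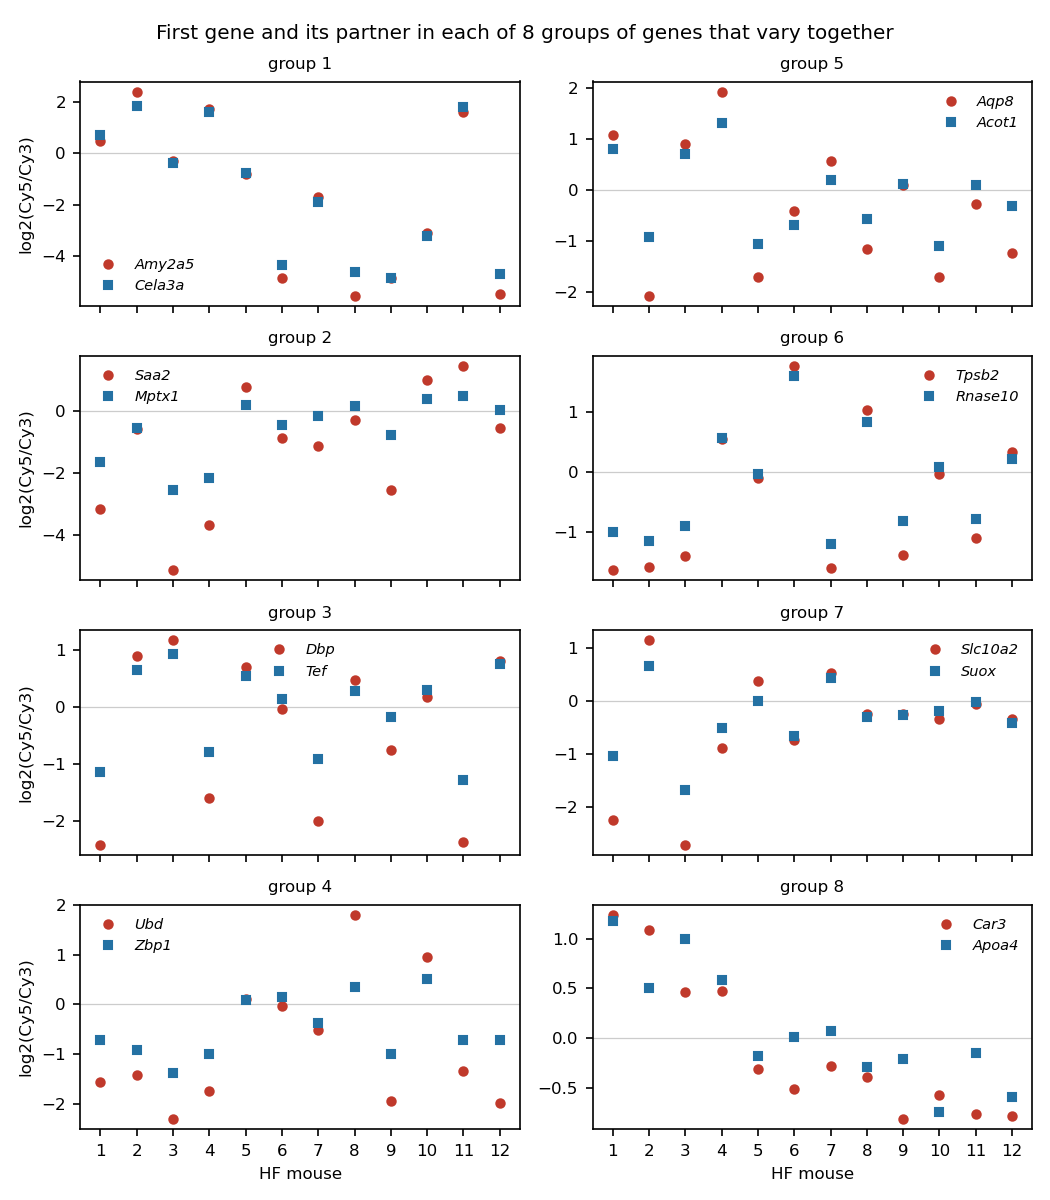
Log2(Cy5/Cy3) in each HF mouse (x axis) of the gene with the largest SD (red circles) and its partner (blue squares) in each of the 8 groups. Partners follow each other over the mice, while the order of the mice differs from group to group: mice 1, 2, 4 and 11 are highest in group 1, mice 1, 3 and 4 lowest in group 2, and mice 1, 4, 7 and 11 lowest in group 3.

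The first group held 20 genes, 15 of them from the acinar list, and was the tightest: the median r between its members was 0.98 in HF and 0.95 in HF-Q. Amy2a5 and Cela3a correlated at 0.99 in HF. In the 11 HF-Q mice r was 0.99 and rho 0.98, each with an adjusted permutation p of 3.5e-05, and r stayed 0.99 without the 2 mice farthest from the median of Amy2a5. Gp2, a protein of zymogen granules, Pdia2, a pancreatic disulfide isomerase, and Acta1, the actin of skeletal muscle, were also in this group. Acta1 followed Amy2a5 in HF (r = 0.755) but not in HF-Q (r = -0.0564). In HF-Q the r with Amy2a5 was 0.783 for Gp2 and 0.807 for Pdia2.

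The second group was the largest with 70 genes and brought together Paneth cell products, serum amyloids and smooth muscle genes. The median r between its members was 0.868 in HF and 0.858 in HF-Q, and all 70 were in the top 10% of SD in HF-Q. Defa21 (SD 1.095) had log2 ratios of -1.81 in the lowest mouse, 0.28 in the median and 1.23 in the highest. Mice 1, 3 and 4 lay at or below -1.40, and the next lowest, mouse 2, at -0.305. Defa5, Lyz1 (Paneth lysozyme; lowest -1.19, median 0.52 and highest 0.95 over the 10 mice with a value), Itln1, Ang4, Mmp7 (which activates the pro-defensins) and Pla2g2a were with it, 10 genes of the Paneth list in all. All 13 measured members of that list were in the top 10% of SD in HF, and all 13 in HF-Q as well. Defa21 had a Cy5 SD of 0.63 and a Cy3 SD of 0.35, whereas Mmp7, a dimmer gene, had 0.76 and 0.04.

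Of the smooth muscle list, 9 genes were in the group. Cnn1 (calponin), Myl9 (myosin light chain) and Actg2 (enteric smooth muscle actin) had SDs of 0.90 to 0.91 and were each lowest in mouse 1 and highest in mouse 7. The log2 ratio of Actg2 was -1.28 in the lowest mouse, -0.09 in the median and 1.54 in the highest. Of 17 measured smooth muscle genes 13 were in the top 10% of SD, and Tpm1 was the least variable at 0.13. Lead and partner of this group, Saa2 and Mptx1 (a mucosal pentraxin), had r = 0.96 in HF. In the 11 HF-Q mice r was 0.60 with an adjusted permutation p of 0.0624 and rho 0.49 with 0.13, so the pair did not pass, and r was 0.37 without the 2 mice farthest from the median of Saa2. Further pairs were chosen after seeing these values, HF-Q among them, so their p-values are descriptive. Saa2 correlated with Defa21 at 0.84 in HF and 0.05 in HF-Q (adjusted permutation p = 0.889, n = 10), and with Actg2 at 0.495 in HF and 0.0575 in HF-Q (adjusted permutation p = 0.889, n = 11). Defa21 correlated with Actg2 at 0.84 in HF and 0.87 in HF-Q (adjusted permutation p = 0.00105, n = 10). For Defa21 and Actg2 in HF-Q, rho was 0.855 (adjusted permutation p = 0.00885) and r was 0.73 without the 2 farthest mice.

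The third group was a small set of clock-controlled genes. The circadian clock is a loop in which Arntl (BMAL1) and Clock switch on their own repressors, the Per and Cry genes, and the output factors Dbp, Tef and Hlf, so that Arntl peaks when Dbp is low. Dbp had a log2 ratio of -2.42 in the lowest mouse, 0.06 in the median and 1.17 in the highest, a 12.1-fold range. It was between -2.42 and -1.60 in mice 1, 4, 7 and 11 and at -0.75 or above in all others. Tef followed it at r = 0.99, and Slc20a1, Hlf and Per1 completed the group. Another probe of Dbp gave r = 0.999 and rho 1.0 with the probe used over the 12 mice, again as a description.

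Arntl, which was not in the group since it moved the other way, correlated with Dbp at -0.98 over the 12 mice. It was between 0.56 and 0.90 in mice 1, 4, 7 and 11 and between -1.10 and -0.07 in the other 8. Correlations with Dbp are given as descriptions of the 12 HF mice, with no test. Nfil3, a repressor that acts against Dbp at shared sites, had r = -0.90 with Dbp and Npas2, a stand-in for Clock, -0.76. Nr1d2 (0.965), Per2 (0.845), Nr1d1 (0.84) and Cry2 (0.73) went with Dbp. Clock itself had an SD of 0.13, below the median of all genes. Of 15 measured clock genes 8 were in the top 10% of SD in HF and 8 in HF-Q. In HF-Q the values of Tef fell into separate clusters, so no r was computed for that pair. The unadjusted slide p in limma was 0.00657 for Slc20a1, 0.0119 for Hlf, 0.00278 for Nfil3 and 0.13 for Dbp, and none passed after adjustment.

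The E-box CACGTG, the sequence bound by the Arntl and Clock proteins, was searched in the 300 bases from 250 before to 50 after each annotated start, in RefSeq promoters of mouse build GRCm38.p6. It reads the same on both strands. It was present for Per1 and Tef among 12 clock genes with a promoter in the table, that is in 2 of 12, against 11.2% of the 10812 kept genes with a promoter, counted in the same way. Counted by promoter, 7.15% of all 32851 held it. Dbp and Hlf, also in the third group, had no E-box in the bases searched. The stretches of Per1 and Tef are shown with the E-box in capitals. Per1 is at chr11:69098723-69098848, and Tef has starts with an E-box at chr15:81802486-81802611 and chr15:81811216-81811341, all on the + strand.
Per1: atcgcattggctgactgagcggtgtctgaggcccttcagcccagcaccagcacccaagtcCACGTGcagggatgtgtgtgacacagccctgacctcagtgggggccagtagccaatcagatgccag
Tef, first start: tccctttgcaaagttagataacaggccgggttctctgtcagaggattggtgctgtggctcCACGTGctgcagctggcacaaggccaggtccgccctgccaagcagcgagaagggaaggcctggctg
Tef, other start: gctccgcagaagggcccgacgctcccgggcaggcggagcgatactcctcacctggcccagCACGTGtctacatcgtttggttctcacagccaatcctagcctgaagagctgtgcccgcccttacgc

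The fourth group had 11 genes, some of them interferon-induced and some antimicrobial. Besides Ubd, it held Zbp1 (a sensor of nucleic acids), Igtp (an interferon-induced GTPase), H2-Aa (MHC class II), Tifa (an adaptor of NF-kB signalling) and the lectins Reg3g and Reg3b. Reg3g had log2 ratios of -2.97 in the lowest mouse, -0.24 in the median and 1.09 in the highest, with mice 3, 4 and 9 at or below -1.75. Ubd and Zbp1 correlated at 0.94 in HF. In the HF-Q mice r was 0.83 (adjusted permutation p = 0.00372) and 0.76 without the 2 farthest mice, while rho was 0.645 (adjusted permutation p = 0.0519).

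The fifth group of 23 genes contained targets of PPARA, the receptor through which fatty acids raise their own oxidation. Acot1 (an acyl-CoA thioesterase), Cyp4a10 and Cyp4a31 (fatty acid omega-hydroxylases), Pdk4 (which shuts off glucose oxidation) and Angptl4 (an inhibitor of lipoprotein lipase) were members. Their SDs were 0.64 to 0.79. Angptl4 was at -0.78 in the lowest mouse, -0.05 in the median and 1.14 in the highest, and mouse 10 or 2 was lowest and mouse 3 or 4 highest for each of these 5. Aqp8 and Acot1 correlated at 0.955 in HF and at 0.88 in HF-Q (adjusted permutation p = 0.00147), with rho 0.88 (0.00163, permutation), and r was 0.65 without the 2 farthest mice. G6pc, the last enzyme of glucose release, was also in the group. Of 28 measured genes of fatty acid oxidation and PPARA action 13 were in the top 10% of SD in HF and 7 in HF-Q.

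RefSeq promoters of this list were searched on both strands for AGGNCA repeated in the same direction with 1 base between, the form of site that PPARA binds with its partner RXR. It was found in Fabp1 alone among 21 genes, against 0.379% of kept genes with a promoter and 0.381% of all promoters. Fabp1 was not in the fifth group, and the promoters of its members Acot1 and Pdk4 had no such site. The smooth muscle genes were searched likewise for the CArG box of serum response factor, which was found in Myl9 alone among 14 genes, against 1.71% of kept genes with a promoter and 1.63% of all promoters. The stretches of Fabp1 and Myl9 are shown with the match in capitals. Fabp1 is at chr6:71199752-71199878, where the repeat reads on the opposite strand, and Myl9 is at chr2:156775243-156775372.
Fabp1: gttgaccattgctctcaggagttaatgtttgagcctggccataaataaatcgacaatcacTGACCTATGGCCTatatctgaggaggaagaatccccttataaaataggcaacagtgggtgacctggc
Myl9: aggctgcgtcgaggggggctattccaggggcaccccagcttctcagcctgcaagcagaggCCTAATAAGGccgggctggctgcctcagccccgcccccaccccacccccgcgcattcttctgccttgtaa

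The sixth group had 17 genes, of which 1 was on a list. Tpsb2, a mast cell tryptase, led it with log2 ratios of -1.64 in the lowest mouse, -0.60 in the median and 1.77 in the highest. Mice 4, 6, 8 and 12 lay above 0. Its partner Rnase10, a secreted ribonuclease-like protein, followed it at r = 0.99 in HF and 0.99 in HF-Q (rho 0.98; adjusted permutation p = 3.5e-05 for both), and at 0.99 without the 2 farthest mice. H2-Q4 (an MHC class I gene), Kifc1 (a mitotic kinesin) and F10 (coagulation factor X) were in the same group. Of the other mast cell genes, Mcpt1, Mcpt2 and Kit were kept, with SDs of 0.60, 0.47 and 0.31, while Cma1 passed the background call on 0 HF arrays and Cpa3 and Fcer1a on 1. The median r between the 4 kept genes was 0.122 in HF and -0.0589 in HF-Q. All 17 genes were in the top 10% of SD in HF-Q, where the median r between them was 0.94, against 0.85 in HF.

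The seventh group had 26 genes, and Slc10a2, a gene of ileal bile acid transport, had the largest SD. Of 15 measured genes on the distal small intestine list, 2 were in the group, Slc10a2 and Fabp6. Slc10a2 takes up bile acids at the apical face of ileal enterocytes and Fabp6 carries them through the cell. Slc10a2 was at -2.70 in the lowest mouse, -0.29 in the median and 1.14 in the highest, and Fabp6 at -1.37, 0.61 and 1.44. For both, mouse 3 was lowest, followed by mouse 1, and mouse 2 was highest. Duoxa2, a maturation factor of the oxidase Duox2, Nos2, which makes nitric oxide, and the gasdermins Gsdmc3 and Gsdmc4 were in the group. So were the B cell genes Ms4a1 (CD20) and Cd79b, and Ccl19, a chemokine of lymphoid tissue. Duox2 itself was the least variable gene of the inducible epithelial defence list, with an SD of 0.16. Slc10a2 and Suox (sulfite oxidase) correlated at 0.97 in HF. In HF-Q r was 0.81 (adjusted permutation p = 0.00372), rho 0.67 (0.0493, permutation), and r without the 2 farthest mice 0.55. In this group 11 of the 26 genes were in the top 10% of SD in HF-Q, and the median r between members was 0.82 in HF and 0.22 in HF-Q. Fgf15, the ileal hormone that bile acids induce, was not in it, and was lowest in mouse 6 at -0.74 and highest in mouse 4 at 1.94. Cubn, also on the distal list and outside the group, was highest in mouse 2 at 1.42. In mice 1 and 3 it was at 0.563 and 0.736, above its median of 0.417. The unadjusted slide p in limma was 0.0112 for Ms4a1, 0.0248 for Cd79b and 0.0102 for Fgf15. It was 0.299 for Slc10a2 and 0.111 for Fabp6, and none passed after adjustment.

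The last group of 6 genes paired Car3, a carbonic anhydrase of fat and muscle, with Apoa4, an apolipoprotein of chylomicrons that rises with fat absorption. Apoa4 was at -0.74 in the lowest mouse, -0.07 in the median and 1.18 in the highest, and mice 1, 2, 3 and 4 were the 4 highest for both genes. They correlated at 0.87 in HF. In 10 HF-Q mice with both values r was 0.59 (adjusted permutation p = 0.0734) and rho 0.56 (0.115, permutation), so this pair did not pass, and r was 0.64 without the 2 farthest mice. The median r between members was 0.757 in HF and 0.202 in HF-Q. Slides held 3 or 4 HF-Q mice each, too few for a correlation within a slide.

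The mice themselves were placed by principal components of all genes with full data. The first component carried 34.9% of the variance, and mice 1, 3, 4 and 2 stood at 31.86, 27.42, 23.69 and 10.87 on it while the other 8 lay between -21.24 and -6.16. The second carried 18.8%, with mice 9 and 6 at -21.80 and -19.69 and mice 11 and 7 at 26.54 and 14.66. The 4 mice on the upper side of the first component stood on slides 1, 2 and 3. They were also the 4 highest for Apoa4, and mice 1, 3 and 4 were the 3 lowest for Mptx1.

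Read by cell type, the lists differed in their typical spread. The median SD was 1.67 on the acinar list, 0.80 on the Paneth list, 0.53 on the smooth muscle list, 0.36 on the crypt base stem list and 0.33 on the enterocyte list, against 0.16 over all genes. Enterocyte genes had 11 of 18 members in the top 10%, from Apoa4 at 0.60 down to Fabp2 at 0.20. Markers of the distal small intestine had 9 of 15 there, led by Slc10a2, and those of the proximal small intestine 9 of 14, led by Apoa4. In HF-Q 4 members of each were in the top 10%. The goblet list had 2 of 8 (Clca1 highest at 0.44, Tff3 lowest at 0.20) and the enteroendocrine list 4 of 12 (Pyy at 0.45, Chga at 0.12).

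B and plasma cell genes were variable in HF, with 8 of 9 in the top 10% and a median SD of 0.49. In HF-Q 3 of 9 were in the top 10% and the median was 0.22. Differences in spread between the diets were not tested, here or for the lists that follow. Ms4a1 was at -1.23 in the lowest mouse, -0.07 in the median and 0.95 in the highest, and Jchain, the joining chain of secreted IgA, at -1.05, 0.41 and 0.76. Their unadjusted slide p in limma was 0.0112 and 0.479. MHC class II had 8 of 9 in the top 10% in HF (H2-Aa at 0.60, Ciita at 0.29) and 5 of 9 in HF-Q. The interferon list had 10 of 21 in HF, led by Igtp at 0.65, and 4 in HF-Q. T cell genes had 3 of 10 in HF and 0 in HF-Q, and macrophage and dendritic genes 1 of 10 in HF and 2 in HF-Q. Cell cycle genes had 18 of 24 in HF and 6 in HF-Q. Their median SD was 0.36 in HF and 0.30 in HF-Q and the median r between them 0.92 in HF and 0.87 in HF-Q. Birc5, a protein of dividing cells, was at -0.84 in mouse 1, -0.04 in the median and 0.61 in mouse 10.

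**Figure D5:**
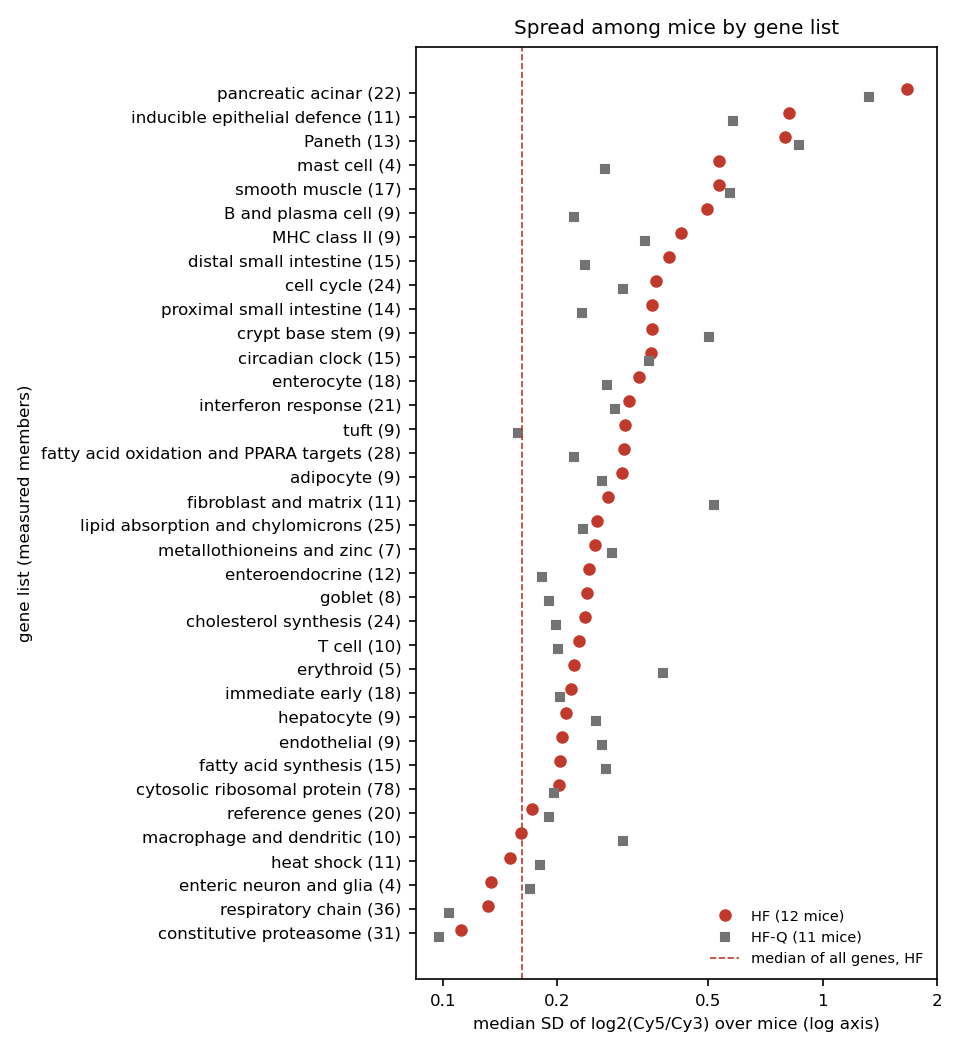
Median SD of log2(Cy5/Cy3) over mice for each gene list (rows, with the number of measured members) in HF (red circles) and HF-Q (grey squares) on a logarithmic axis, with the median of all genes in HF as a dashed line. The acinar list is highest at 1.67 in HF and the constitutive proteasome lowest at 0.11.

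Metabolic and housekeeping lists lay nearer to the median of all genes or below it. Lipid absorption genes had 9 of 25 in the top 10% and cholesterol synthesis 3 of 24, led by Sqle (squalene epoxidase) at 0.54. The metallothionein Mt2 had an SD of 0.79, between -1.28 in mouse 10 and 1.32 in mouse 9. All 78 cytosolic ribosomal protein genes were in the top 10% of signal and 1, Rpsa at 0.34, was in the top 10% of SD. Their median SD of 0.20 was above the 0.16 of all genes. It was close to the 0.20 of the 806 genes with a mean log2 signal of 16 to under 18. In the Cy5 channel alone their median SD was 0.14, against 0.17 over all genes. The ribosomal protein genes moved together with a median r of 0.86 in HF and in HF-Q. Of 36 respiratory chain genes 0 were in the top 10% and 6 in the bottom 10%, and of 31 genes of the constitutive proteasome 0 and 9, with Psmc5 at 0.06. Among 20 genes often used as references, 1 was in the top 10% (Tfrc, the transferrin receptor, at 0.32) and 2 in the bottom 10%. Eef2, elongation factor 2, was the most even of them at 0.08, and Actb was at 0.15.

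The 12 most stable named genes had SDs of 0.04 to 0.05. Their highest and lowest mice differed by 1.09-fold to 1.135-fold, and each SD was below the median SD of 0.06 among repeated spots of 1 array. Gfm2 (mitochondrial elongation factor; SD 0.04) had log2 ratios of -0.09 in the lowest mouse, 0.0003 in the median and 0.03 in the highest. Cwc15 (spliceosome), Mrpl33 (mitochondrial ribosome), Ncln (endoplasmic reticulum), Fbxw8 (ubiquitin ligase), Smg5 (nonsense-mediated decay), Ints3 (integrator complex), Rnf187 (ubiquitin ligase), Babam1 (a DNA repair complex) and Mff (mitochondrial fission) were other members, and Stoml2 was the first gene outside. Olfr74, an olfactory receptor, and C87436 were the remaining 2. Olfr74 had a median linear signal of 103 intensity units, close to the median of all spots, and Gfm2 of 1708.

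The order among stable genes was less repeatable than among variable ones. In HF-Q 8 of these 12 were in the bottom 10% of SD (a class that holds 10% of all genes), and of the 100 most stable named genes 56 were. Their HF-Q SDs ran from 0.06 for Babam1 to 0.15 for Gfm2. The median Cy5 SD of the 12 was 0.07 and the median Cy3 SD 0.05, against a median SD of the ratio of 0.04.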

How the data were processed

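Each of the 23 arrays had 1 scanner file. The spot and background columns are linear intensity values, read with Agilent Feature Extraction 10.7.3.1 per the submitters' processing notes and not normalized between arrays per the file headers. A further deposited column is the authors' log10 dye ratio, and a deposited table has the authors' processed log2 values, by a method that no source used here gives. Both served as alternatives. Background correction was by normexp (offset 50) in limma 3.58.1 under R 4.3.3, each array was normalized by loess with 3671 control spots at weight 0, outlier-marked spots (275 to 355 per HF array) were treated as missing, and a probe was the average of its spots. Genes with several kept probes were read by their brightest. Ratios carry dye bias, since dyes were not swapped, so only differences among mice are read. Each sample is 1 mouse on 1 array, so the spread across mice includes that of scraping and hybridisation. The slide p-values concern differences between slide means, judged against the spread across mice within slides. The permutation p-values concern the correlation of a pair of genes across mice.

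Gene names came from RefSeq (GRCm38.p6) by accession for 27325 probes, symbol for 3523 and synonym for 551. The other 24282 kept the name in the file. Probe positions are on mm9. For 46 kept genes the chromosome in the file and in RefSeq differ.

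Slides were tested by lmFit and eBayes (F-test, Benjamini-Hochberg over 18825 genes, threshold 0.05). Correlations of pairs used two-sided permutation tests with 100000 resamples and Benjamini-Hochberg adjustment over 7 pairs and over 3 added pairs. No r was computed where the largest gap between neighbouring values exceeded 50% of the range. The F-test was tested on simulated data. Named genes were the 15 brightest, 25 most variable and 12 most stable genes with an established symbol, the first gene, partner and up to 4 more of each group, and the most and least variable member of each list. A few genes that this rule names are not reported here. Genes named beyond it were chosen after their values were seen. The members, lists and call rules were chosen with earlier results of these data known. The number of arrays limits the precision.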

Additional observations from a re-analysis of the deposited data

How the results depend on the processing

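Of 520 recomputed SDs of named genes (leaving out single mice set aside), 464 stayed within 1.5 times the reported SD and 56 did not, 22 of these with Cy5 alone. Of 624 SDs without 1 mouse, 623 stayed within 1.5 times, and the exception was BC037704 without mouse 8. The 12 most stable genes depended most on the processing. Under median centring, Cy5 alone and the authors' processed log2 values, 1 of the 12 remained, with the authors' log10 ratio 7, with the mean over a gene's probes 3, with residuals after slide means 3, and with the median absolute deviation 0. Without 1 mouse in turn 6 to 10 remained. The cause was not tested. Over all alternatives 21 to 25 of the 25 most variable genes remained. The number of genes with SD above 0.5 was 1106 with the authors' log10 ratio, against 442, and 402 to 476 without 1 mouse in turn. Among the 15 most abundant genes 14 remained with normalized Cy5 and 8 with the Cy3 signal of the pool. Groups built from the 100 most variable genes gave 3 passing pairs of 5. The slide test called 0 genes in limma under each alternative and without each mouse, with 296 to 872 genes at unadjusted p under 0.05. On the Cy3 signal of the pool alone, a check chosen after seeing the data, it also called 0, with 2041 at unadjusted p under 0.05. All 56 recomputed pair correlations kept their direction and side of the threshold. Signals near the scanner's ceiling limit the precision for the brightest genes. No paired analysis was possible because a single diet group was described and replicate numbers pair no samples within it.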

Other observations

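COX1 had company in its pattern over the mice. The named genes with the highest correlation to it in HF were Pde5a, a phosphodiesterase that breaks down cyclic GMP (r = 0.98), and Slc49a4, a membrane transporter (r = 0.98), both chosen after their values were seen. Pde5a (SD 0.61) was between -1.16 and -0.84 in mice 6, 8 and 12, and between -0.33 and 0.65 in the 8 other mice with a COX1 value. Slc49a4 (SD 0.46) was between -0.53 and -0.41 in those 3 mice and between -0.04 and 0.73 in the 8 others. The probes lie on the mitochondrial genome (6650 to 6709) for COX1, on chromosome 3 (122558949 to 122559008) for Pde5a and on chromosome 16 (35695203 to 35695262) for Slc49a4, on mm9. The HF-Q values of COX1 also fell into separate levels, with 5 mice between -3.80 and -2.11 and 6 between 0.21 and 1.86. The cause was not tested.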
